A study of Rattus norvegicus with 4 samples.

Results

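The 14-3-3 family was followed across 4 RNA-seq libraries of rat ear skin. Its 7 genes, Sfn, Ywhab, Ywhae, Ywhag, Ywhah, Ywhaq and Ywhaz, were taken by symbol from the 54532 genes of the deposited tables, and all 7 passed the low-count filter that left 6370 genes. The animals were Sprague Dawley rats injected with adeno-associated virus (AAV), a gene delivery vehicle. One ear of each of 2 rats received AAV-Fgf7 (genotype label Fgf7 overexpression), where Fgf7 encodes a fibroblast growth factor that acts on epithelial cells. The opposite ear received AAV-control (genotype label wt), and injected skin was sampled on day 3. There were thus 2 libraries a group, 1 per rat. The sources used here do not state the viral promoter, the origin of the Fgf7 insert or the age and sex of the rats.

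The 14-3-3 proteins are small acidic adaptors that pair up and clasp partner proteins at phosphorylated serines or threonines. They hold many kinases, phosphatases and transcription factors in place, among them Raf kinases, Cdc25 phosphatases, FOXO factors and YAP. Most family members are made in nearly every cell type. Stratifin, or 14-3-3 sigma, the product of Sfn, is largely restricted to stratified and other epithelia. It prefers to pair with itself, is known as a target of p53 and p63, and restrains entry into mitosis. Sfn was chosen because it stood high in AAV-Fgf7 ears in earlier results of these libraries, and the 6 paralogues were chosen by family. The difference of Sfn between the groups is therefore given as a description, without a test.

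Library totals ranged from 1299136 to 1601321 counts. The tables name mouse gene models although the tissue is rat, and the sources used here do not state how reads were matched to them. Levels are CPM, read counts brought to an equal library size with TMM scaling, or, where genes are compared with each other, the authors' FPKM, which also divides by gene length. Marker genes of other tissue components differed between libraries of a group. Genes of a skeletal muscle list (16 of 17 with a count, Tnnc2 at 0) summed to 15565 and 63725 CPM in the AAV-control ears (rat 1, then rat 2), and to 33614 and 16698 CPM in the AAV-Fgf7 ears (same order). Those of a hair follicle list (15 of 17 matched symbols with a count, Krt72 and Krt35 at 0) summed to 80.5 and 1321 CPM against 4170 and 210 CPM.

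The sequence just upstream of each start was compared between Sfn and its paralogues. Any link between this sequence and how the genes varied was not tested. Rat promoters from RefSeq (GRCr8) were found for 6 of the 7 genes, all but Ywhaz, and the 250 bases upstream of the start were used. Sfn, the most abundant paralogue Ywhae and the least variable paralogue Ywhag are printed 5′ to 3′, with capitals marking 2 motifs on either strand, TGANTCA (AP-1) and GGGCGG (GC box). The Sfn window lies at chr5:151111855-151112104 on the minus strand, the Ywhae window at chr10:61082684-61082933 on the plus strand and the Ywhag window at chr12:26380969-26381218 on the plus strand.
Sfn: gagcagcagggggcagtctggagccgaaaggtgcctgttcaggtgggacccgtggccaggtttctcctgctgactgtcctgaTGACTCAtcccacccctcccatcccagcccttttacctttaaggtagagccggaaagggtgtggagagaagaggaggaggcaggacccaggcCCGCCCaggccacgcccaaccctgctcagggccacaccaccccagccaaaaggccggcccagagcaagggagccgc
Ywhae: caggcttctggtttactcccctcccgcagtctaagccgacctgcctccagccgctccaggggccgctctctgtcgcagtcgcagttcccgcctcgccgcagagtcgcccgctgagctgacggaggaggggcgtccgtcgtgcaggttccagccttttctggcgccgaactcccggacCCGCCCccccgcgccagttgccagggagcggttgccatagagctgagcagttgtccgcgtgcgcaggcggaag
Ywhag: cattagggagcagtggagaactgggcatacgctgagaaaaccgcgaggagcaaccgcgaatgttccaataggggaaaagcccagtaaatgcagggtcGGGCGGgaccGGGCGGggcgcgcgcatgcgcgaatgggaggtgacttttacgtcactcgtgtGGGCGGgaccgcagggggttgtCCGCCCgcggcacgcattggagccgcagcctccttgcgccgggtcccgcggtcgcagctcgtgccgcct

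The Sfn window held a lower density of CpG dinucleotides than those of its paralogues. Its ratio of observed to expected CpG was 0.267, from 7 CpG, against 0.785 for Ywhab, 0.873 for Ywhaq, 0.875 for Ywhae, 1.12 for Ywhag and 1.15 for Ywhah. The median of all 33469 promoters was 0.383. GC content itself was close, at 64.8% for Sfn and between 65.2% and 69.2% for the others. Sfn alone of the 6 held the AP-1 letters TGANTCA, at 168 bases before the start, and 6.34% of all promoters held them. The GC box letters GGGCGG occurred in all 6 windows and in 30.5% of all promoters. The ETS letters GGAAGT occurred in 1 member, Ywhab, and in 19.2% of all promoters. The shorter letters GGAA, which the printed Sfn, Ywhae and Ywhag windows hold, were not searched. CCAAT occurred in 3 members (Ywhab, Ywhag and Ywhaq) and in 34.0% of all promoters. Ywhah alone held TGACGTCA (CRE, in 1.59% of all promoters) and TATAAA (in 12.9%), Ywhag and Ywhah held GCCNNNGGC (AP-2, in 12.6%), and none held the E-box CACGTG (in 5.59%). All motifs were searched on both strands. A match describes letters and is not a binding site, and no match says only that these letters are not in this window.

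**Figure D1:**
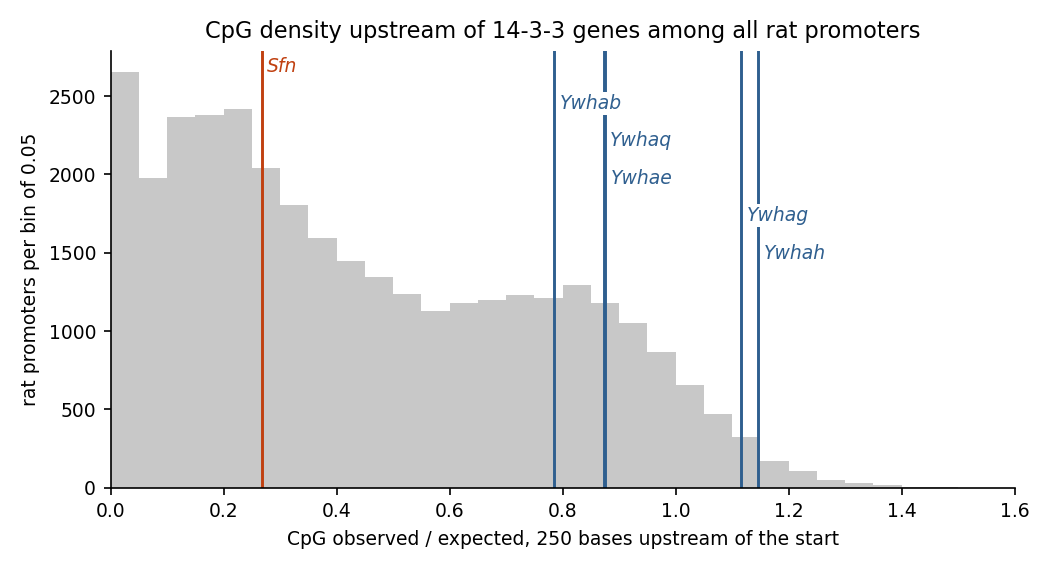
The x axis gives the ratio of observed to expected CpG in the 250 bases upstream of each start, and the grey bars count all 33469 rat promoters per bin of 0.05. The line of Sfn at 0.267 lies left of the 5 paralogue lines, which run from 0.785 to 1.15.

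Per length, Ywhae was the leading 14-3-3 transcript of ear skin in every library. Its product, 14-3-3 epsilon, is a partner of Cdc25 phosphatases. Ywhae stood at 941 and 1042 FPKM in the AAV-control ears (rat 1, then rat 2) and at 1028 and 1071 FPKM in the AAV-Fgf7 ears (same order). That was 50.4% to 61.1% of the summed FPKM of the family. In AAV-control ears the next in order was Ywhaz, at 245.9 and 245.4 FPKM, then Ywhah, at 191 and 158 FPKM, and then Sfn, at 78.4 and 133 FPKM. These ranges did not overlap. Ywhag (58.8 to 60.6 FPKM over the 4 libraries) and Ywhaq (54.2 to 60.8 FPKM) overlapped with each other below Sfn. Ywhab was lowest, at 11.4 to 23.4 FPKM, from 59 to 107 counts.

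In AAV-Fgf7 ears Sfn had rank 2 by FPKM, the place held by Ywhaz in AAV-control ears. Sfn held 272 and 346 FPKM there, and its range overlapped that of Ywhaz, at 254 and 323 FPKM. Within a library, Sfn was 0.319 and 0.543 times Ywhaz per length in AAV-control ears, and 1.07 times in both AAV-Fgf7 ears. Against Ywhah, the ratio went from 0.410 and 0.845 to 1.52 and 1.41. FPKM divides by the whole mouse gene model, 1613 bases for Sfn but 4118 for Ywhaz and 5500 for Ywhag, so the order depends on how much of each model the rat reads cover. By counts alone Sfn had rank 6 and rank 5 of 7 in the AAV-control ears and rank 4 in both AAV-Fgf7 ears.

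Sfn is listed as ENSMUSG00000047281, on the minus strand of mouse chromosome 4 from 133600556 to 133602168, in a build that the sources used here do not state. Its raw counts were 169 and 329 in the AAV-control ears (rat 1, then rat 2), and 635 and 821 in the AAV-Fgf7 ears (same order). These correspond to 128 and 219 CPM against 448 and 568 CPM. Both AAV-Fgf7 libraries lay above both controls, and the 2 controls differed by more, in proportion, than the 2 AAV-Fgf7 libraries did. In bulk tissue, fewer cells of a type and less RNA per cell cannot be told apart. The group values were 174 ± 64.1 CPM and 508 ± 84.8 CPM (SD, n = 2). Between the ears of a rat the ratio was 3.50 (rat 1) and 2.60 (rat 2). The log2 fold change was 1.55 (SE 0.30), and 0.722% of all genes tested had one as high or higher. Fgf7 itself had ratios of 4.49 and 13.5. Every ratio between the ears of a rat rests on giving 1 AAV-Fgf7 column to rat 2 by its number. The description of the AAV-Fgf7 ear of rat 2 repeats the column of rat 1, and no description gives the remaining AAV-Fgf7 column. With these columns swapped, a choice made after seeing the data, the ratios became 4.43 and 2.05 for Sfn and 13.9 and 4.38 for Fgf7 (rat 1, then rat 2), so which rat had the larger Sfn ratio is not known. The group values do not depend on this.

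**Figure D2:**
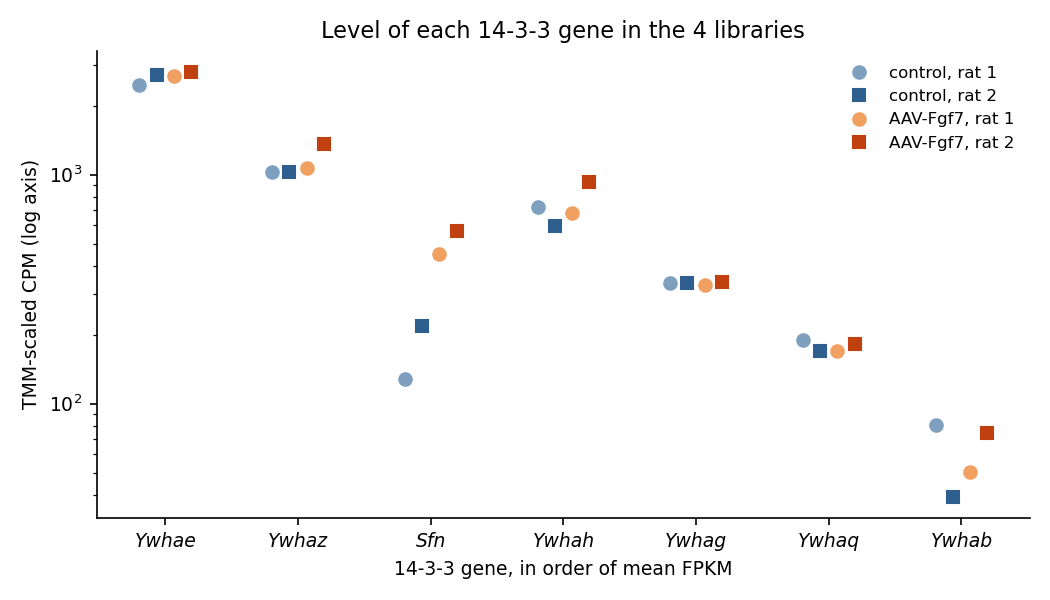
The y axis gives TMM-scaled CPM on a log scale, with 1 point per library for each of the 7 genes, blue for control and orange for AAV-Fgf7, circles for rat 1 and squares for rat 2. Sfn runs from 128 to 568 CPM with the orange points above the blue ones, whereas the points of Ywhag almost coincide.

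Of the 6 paralogues, 5 varied over the 4 libraries by a factor of at most 1.55 from lowest to highest CPM, and Ywhab by 2.05, against 4.43 for Sfn. Over the 4 libraries the coefficient of variation of CPM was 59.5% for Sfn, and 1.17% for Ywhag, 5.49% for Ywhaq, 5.67% for Ywhae, 14.1% for Ywhaz, 19.1% for Ywhah and 32.0% for Ywhab. Ywhag, which encodes 14-3-3 gamma, stood at 336 and 337 CPM with AAV-control and 331 and 340 CPM with AAV-Fgf7. Ywhae stood at 2453 and 2726 against 2698 and 2804 CPM. Their groups overlapped. The edgeR quasi-likelihood fit gave Ywhag a log2 fold change of -0.0041 (SE 0.18, 95% interval -0.44 to 0.43) and Ywhae one of 0.09 (SE 0.17, interval -0.33 to 0.51).

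Ywhaz was the other member whose AAV-Fgf7 libraries both lay above both controls. It encodes 14-3-3 zeta, a well-studied partner of Raf kinases. Its levels were 1028 and 1030 CPM with AAV-control and 1070 and 1357 CPM with AAV-Fgf7, so the ear of rat 1 exceeded its control by a ratio of only 1.04 and that of rat 2 by 1.32. The log2 fold change was 0.24 (SE 0.19, interval -0.24 to 0.71). Ywhah, which encodes 14-3-3 eta, stood at 720 and 596 against 679 and 924 CPM, a ratio of 0.943 in rat 1 and 1.55 in rat 2 (1.28 and 1.14 with the AAV-Fgf7 columns swapped). Its log2 fold change was 0.29 (SE 0.23, interval -0.27 to 0.84). For both genes the AAV-Fgf7 library of rat 2 was the highest of the 4.

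Ywhaq and Ywhab encode 14-3-3 theta and beta. Ywhaq stood at 189 and 169 CPM with AAV-control and 169 and 181 CPM with AAV-Fgf7, with a log2 fold change of -0.03 (SE 0.19). Ywhab stood at 80.5 and 39.3 CPM against 50.1 and 74.1 CPM. The ratio of Ywhab between the ears was 0.623 (rat 1) and 1.89 (rat 2), opposite in direction (0.920 and 1.28 with the AAV-Fgf7 columns swapped). Its log2 fold change was 0.06 (SE 0.42, interval -0.96 to 1.08). With 59 to 107 counts, a difference within that interval was not detectable for Ywhab.

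The value of Ywhaq is uncertain because a copy of it took a similar number of reads. Ywhaq-ps3, listed as a transcribed processed pseudogene of mouse, held 188 and 263 counts with AAV-control and 217 and 278 with AAV-Fgf7, against 240 to 262 for Ywhaq in the 4 libraries. Its log2 fold change was 0.12 (SE 0.23). The other listed copies, Ywhaq-ps1 and Ywhaq-ps2, had 0 counts in each library. When the copies were added to the parent gene, the share of Sfn in the family FPKM was 4.37% and 6.88% with AAV-control and 13.2% and 14.5% with AAV-Fgf7.

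**Figure D3:**
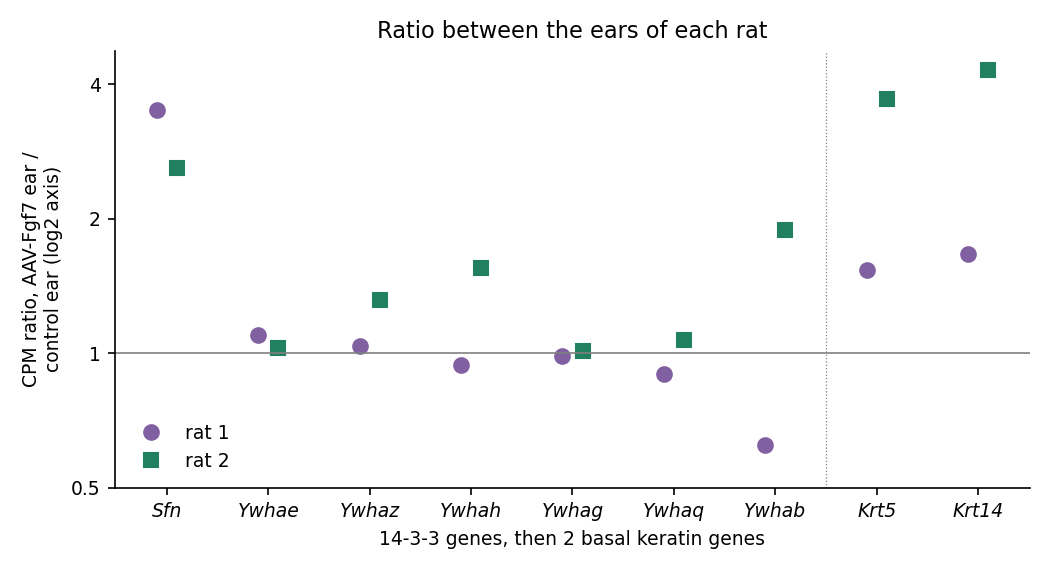
The y axis gives the CPM of the AAV-Fgf7 ear divided by that of the control ear on a log2 scale, with a circle for rat 1 and a square for rat 2, for the 7 genes and for the basal keratin genes Krt5 and Krt14. Sfn lies at 3.50 and 2.60, and the paralogues run from 0.623 to 1.89.

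Over all 6370 genes, edgeR called 0 genes (0%) at an adjusted p under 0.05, so 0 of the 7 members were called. An unadjusted p under 0.05 was found for 148 genes, or 2.32%, and Sfn was the member among them. DESeq2 called 4 genes (0.0628%), which were Fgf7, H2afv, Rabac1 and Sfn, and limma-voom called 0, with 84 and 131 at an unadjusted p under 0.05. When 1 library was left out, edgeR called 59 genes without the control of rat 1 and 40 without that of rat 2, where Sfn was among them (adjusted p = 0.000660). This is the contrast for which Sfn was chosen, so nothing is read from its call. Both AAV-Fgf7 libraries lay above both controls for 2 of the 7 members and below them for 0, whereas 14.8% of all genes lay above and 13.3% below. The median log2 fold change of the family was 0.09, beside -0.02 for all genes.

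Within the family, the share of Sfn differed most between the groups. Sfn made up 4.90% and 7.82% of the summed FPKM in the AAV-control ears (rat 1, then rat 2), and 14.6% and 16.3% in the AAV-Fgf7 ears (same order). Ywhae took 58.8% and 61.1% against 55.2% and 50.4%. Such shares do not depend on how the libraries are scaled. The means were 6.36% ± 2.07 and 15.4% ± 1.17 (SD, n = 2). As a share of the family's counts, Sfn stood at 2.60% (95% Wilson interval 2.24 to 3.02) and 4.28% (3.85 to 4.76) in AAV-control ears. It stood at 8.24% (7.64 to 8.87) and 9.10% (8.52 to 9.71) in AAV-Fgf7 ears. These intervals treat each read as an independent draw, although reads without molecular identifiers are not independent molecules. They also leave out variation between animals and between ears. The 6 paralogues together summed to 4806 and 4897 CPM with AAV-control and 4997 and 5681 CPM with AAV-Fgf7.

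**Figure D4:**
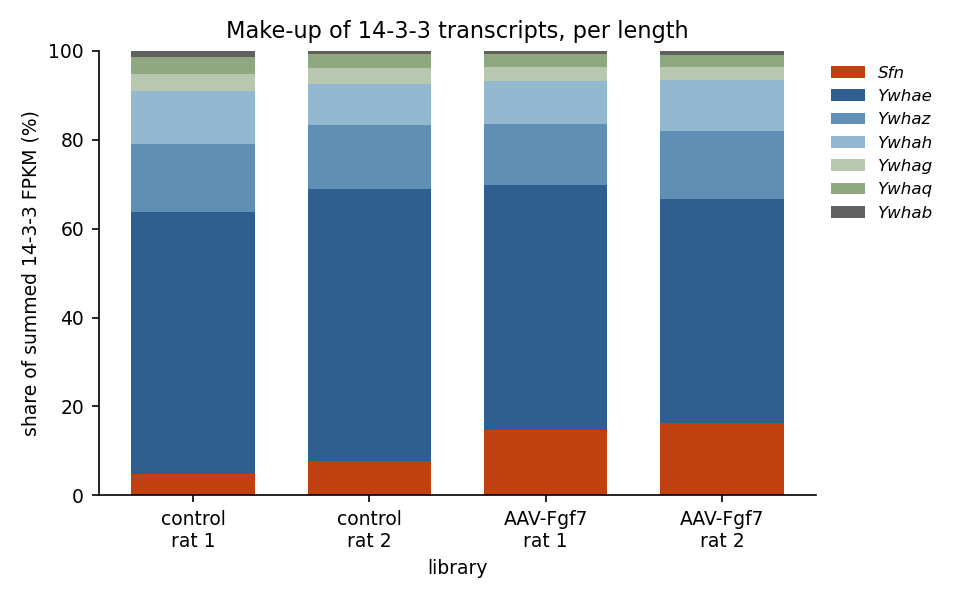
Each bar is 1 library and is divided by the share of each gene in the summed 14-3-3 FPKM, in percent. The lowest segment, Sfn, takes 4.90% and 7.82% in the control bars and 14.6% and 16.3% in the AAV-Fgf7 bars, and the segment of Ywhae above it is the largest in each bar.

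The pan-epithelial genes tested stood higher in the same libraries as Sfn. A list of 17 pan-epithelial genes, of which 9 were tested and 15 had a count (Epcam and Ovol1 at 0), summed to 1069 CPM in each AAV-control ear and to 1605 and 2134 CPM in the AAV-Fgf7 ears of rats 1 and 2. For all 9 tested members both AAV-Fgf7 libraries exceeded both controls, beside 14.8% of all genes. Their log2 fold changes ran from 0.41 to 1.33 with a median of 0.90, and edgeR called 0 of them, with 7 at an unadjusted p under 0.05. The desmosome genes Dsp and Pkp1, which anchor keratin filaments at cell contacts, stood at 0.72 (SE 0.22) and 0.99 (SE 0.26). Ppl, which encodes periplakin of the cornified envelope, stood at 0.45 (SE 0.19), and Esrp1, which encodes an epithelial splicing regulator, at 0.75 (SE 0.28).

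Relative to the pan-epithelial genes Sfn still lay apart between the groups, and relative to basal keratins it did not. Per 100 CPM of the pan-epithelial list, Sfn stood at 12.0 and 20.5 with AAV-control and 27.9 and 26.6 with AAV-Fgf7. The ratio of Sfn to Dsp was 0.354 and 0.539 against 0.840 and 0.774, which did not overlap. The ratio of Sfn to Krt14, a keratin of the basal layer, was 0.305 and 0.592 against 0.641 and 0.356, so that these groups overlapped. The ratio to Krt5, the partner of Krt14, was 0.583 and 0.943 against 1.33 and 0.659 and overlapped too, as did the ratio to Trp63, at 6.26 and 12.7 against 17.6 and 12.6. The part of the epithelial share of the tissue in the level of Sfn was not tested.

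**Figure D5:**
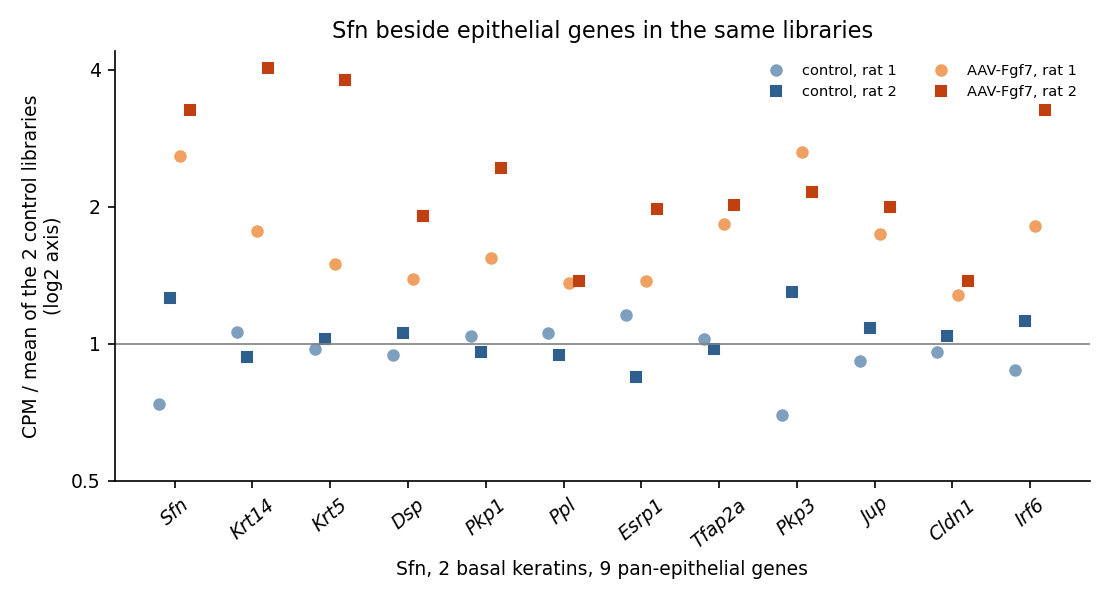
The y axis gives CPM divided by the mean of the control libraries on a log2 scale, with 1 point per library, for Sfn, Krt14, Krt5 and the 9 tested pan-epithelial genes. The orange points of the AAV-Fgf7 libraries lie above the blue control points for each gene, and those of Krt14 and Krt5 lie farther apart between the rats than those of Sfn.

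The summed levels of basal and of suprabasal keratinocyte genes were highest in the AAV-Fgf7 ear of rat 2, but single genes differed. The basal list (12 members, each with a count, 9 tested) summed to 1179 and 1036 CPM with AAV-control and 1563 and 3197 CPM with AAV-Fgf7. The suprabasal and cornified list (6 of 17 tested) summed to 1049 and 680 against 987 and 2828 CPM, and its genes Krtdap, Dsc1, Calml3, Flg, Ivl and Sbsn were at 0 in each library. For 4 of the 9 tested basal genes and 2 of the 6 tested suprabasal genes both AAV-Fgf7 libraries exceeded both controls, beside 14.8% of all genes. Among these were Bnc1, a basal gene (3 and 5 against 12 and 11 counts), and Asprv1, a suprabasal gene (5 and 6 against 13 and 20). They passed the low-count filter only through their AAV-Fgf7 libraries, so the filter largely fixed where they lay. In either list edgeR called 0, with 2 in each at an unadjusted p under 0.05, Asprv1 being 1 of the suprabasal genes. Krt14 had a log2 fold change of 1.54 (SE 0.39), and Krt5 stood at 1.41 (SE 0.43). Krt15, another basal keratin, and Itga6, a hemidesmosomal integrin gene, stood at 0.39 (SE 0.30) and 0.31 (SE 0.31), with overlapping groups. Of the suprabasal genes, Krt10 stood at 1.20 (SE 0.52), Serpinb5 at 1.20 (SE 0.45), Krt2 at -0.07 (SE 0.56) and Abca12 at 0.75 (SE 0.49). Lamb3 (-0.13), Dst (-0.01), Krt2 and Tgm1 (-0.05) were highest in a control library, and Bnc1 (1.48) in the AAV-Fgf7 ear of rat 1. Counts of 0 under mouse gene models do not show that a transcript was absent.

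The genes whose profile over the 4 libraries lay closest to that of Sfn were sought among 4385 genes of at least 20 CPM, by Euclidean distance between centred log2 CPM. Bmp7, a BMP ligand gene, came first at a distance of 0.414, with 11.4 and 13.3 CPM with AAV-control and 35.3 and 40.8 CPM with AAV-Fgf7. It was followed by Pkp3, a desmosomal plakophilin gene (0.540), Camsap3, which encodes a microtubule minus-end protein of epithelia (0.545), and Wnt4, a Wnt ligand gene (0.555). Then came the mitochondrial gene mt-Co1 (0.557), the homeobox gene Barx2 (0.579), the mitochondrial gene mt-Nd1 (0.633) and Nt5dc2 (0.662). Pkp3 stood at 23.5 and 43.9 CPM against 89.0 and 72.7 CPM, and its ratio to Sfn overlapped between the groups. Being picked for closeness to Sfn largely fixed this overlap in advance. The limit of 20 CPM applied to the mean over the 4 libraries. Bmp7, Camsap3, Wnt4, mt-Nd1 and Nt5dc2 lay under it in both controls. They passed only through their AAV-Fgf7 libraries, so the limit partly fixed where they lay. With 4 libraries, such closeness describes these samples only.

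Of 10 genes that regulate Sfn or the turnover of its product, 4 were tested and 0 were called. Trp63, which encodes p63, the master factor of stratified epithelia, stood at 20.5 and 17.3 CPM with AAV-control and 25.4 and 45.0 CPM with AAV-Fgf7. Its log2 fold change was 0.90 (SE 0.41). Zfp750, which encodes an epidermal differentiation factor, had one of 0.64 (SE 0.33). Klf4, which encodes a factor of epidermal barrier formation, was the most abundant of the 4, with 1682 and 2091 CPM against 1715 and 1835 CPM and a log2 fold change of -0.09 (SE 0.19). Cop1, which encodes a ubiquitin ligase, stood at -0.23 (SE 0.26). Trp53 and Brca1 were at 0 in each library. Of 19 p53 targets, 9 were tested, with 5 higher, 4 lower, a median of 0.13 and 0 called. Among them Ei24 stood at 0.13, Phlda3 at -0.18, Bax at -0.01 and Bbc3 at -0.20, and Cdkn1a, Mdm2 and Fas were at 0 in each library.

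Over the 4 libraries no client or kinase gene of the family passed the edgeR test. Of 46 client genes, 33 were tested, with 14 higher, 19 lower, a median log2 fold change of -0.07 and 0 called. Both AAV-Fgf7 libraries lay above both controls for 5 of the 33 and below for 8, beside 14.8% and 13.3% of all genes. The most abundant were Zfp36l1, which encodes an mRNA decay factor (-0.13), the histone deacetylase gene Hdac5 (0.03), the translation factor gene Eif4b (-0.01) and Cdkn1b, which encodes the Cdk inhibitor p27 (0.09). Of 32 genes of kinases that phosphorylate 14-3-3 docking sites, 24 were tested, with 10 higher, 14 lower, a median of -0.04 and 0 called. Here the most abundant were Rps6ka3 (-0.04), Mark2 (0.21), Prkaca (-0.05) and Pim3 (0.02). Only 2 of 11 genes of the switch into mitosis that stratifin restrains were tested, Wee1 at 0.10 (SE 0.37) and Plk1 at 0.60 (SE 1.23), and Cdc25b, Cdc25c, Ccnb2 and Chek2 were at 0 in each library. At an unadjusted p under 0.05 edgeR found 0 genes in each of these lists of regulators, p53 targets, clients, kinases and mitotic genes, and none of the 4 DESeq2 calls other than Sfn belonged to a list described here.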

How the data were processed

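The authors deposited raw counts per gene and FPKM per gene for 4 libraries of ear skin, made on an Illumina platform per the labels' protocols. Per the submitters' processing notes the build was Rnor_6.0 (rn6), yet the tables carry mouse identifiers, of which 0 occur in the RefSeq table of rat GRCr8. The sources used here do not state the aligner or counter, and the protocol names either poly(A) selection or rRNA depletion. The deposited FPKM equalled counts over listed gene length and an effective library total (largest relative difference 5.11e-15). The authors' group mean columns were not used. Both AAV-Fgf7 descriptions name the same column, and the remaining one was given to rat 2 by its number. Titles and design text give opposite ear sides, so side was not used.

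Counts were fitted with edgeR 4.0.16 in R 4.3.3 (filterByExpr, TMM, glmQLFTest, two-sided), with Benjamini-Hochberg adjustment over 6370 genes at 0.05. These genes held 98.9% of counts, TMM factors ran from 0.948 to 1.03, and the common biological coefficient of variation was 29.1%. SEs are the log2 fold change over the root of F, with 95% intervals on the fit's degrees of freedom. An exact permutation test of 2 against 2 libraries cannot reach the threshold and was not used. DESeq2 1.42.0 and limma 3.58.1 were alternatives. Between libraries of one group the chi-square over genes, per degree of freedom, was 12.6 (control) and 7.75 (AAV-Fgf7), so none agreed within sampling noise. Libraries came from different rats, 1 ear per group.

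The ears of a rat share its number in the titles, which pairs the libraries by animal as far as the column given to rat 2 is right. Deviations of same-numbered libraries correlated at r = -0.30 across genes, which are not independent replicates. The chi-square per degree of freedom was 6.56 (rat 1) and 13.7 (rat 2) between same-numbered ears. It was 4.46 between the control of rat 1 and the AAV-Fgf7 library of rat 2, and 5.90 for the other crossed pair. Log2 CPM used a prior count of 2. Members and lists were chosen with earlier results of these data known. Named genes were the 7 members, the 8 genes closest to Sfn at a mean of at least 20 CPM, up to 4 tested members of highest CPM per list, and Krt5, Krt14 and Fgf7. Other list genes named here were chosen after their values were seen.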

Additional observations from a re-analysis of the deposited data

How the results depend on the processing

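The log2 fold change of Sfn was 1.54 to 1.61 in the 11 alternatives that kept all libraries and 1.22 to 1.99 when 1 library was left out. In edgeR it was 1.99 without the control library of rat 2 and 1.22 without that of rat 1. DESeq2 gave 1.54 and passed the threshold (adjusted p = 0.0295). Over the alternatives that kept all libraries the adjusted p ran from 0.0295 to 0.9999. Sfn was chosen for this contrast, so nothing is read from whether it passed. With rat as a replicate block edgeR gave Sfn 1.59 (SE 0.26, adjusted p = 0.9997), called 0 genes and found 75 at an unadjusted p under 0.05. The block changed no other call. With the treated rat numbers crossed, a choice made after seeing the data as was leaving out the muscle, cartilage and hair follicle lists, it called 0 genes, with 301 at an unadjusted p under 0.05. The count of called genes was 3 without the low-count filter, 4 in DESeq2, and 0 to 59 when 1 library was left out. The 59 were called without the control of rat 1, and 40 without that of rat 2. Such fits assume that the lone library varies like the other group.

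The Sfn share of the family was higher in AAV-Fgf7 ears by 9.09 percentage points of FPKM, by 5.23 of counts, which are not divided by gene length, and by 7.63 to 10.5 when 1 library was left out. No paralogue was called under any of its 15 alternatives. Values near 0 changed sign. When 1 library was left out, Ywhab ran from -0.37 (without the control of rat 2) to 0.66 (without that of rat 1), and leaving out the AAV-Fgf7 library of rat 2 gave -0.25. Ywhag then ran from -0.025 to 0.011 and Ywhaq from -0.10 to 0.054. With library totals only Ywhag stood at 0.037 and Ywhaq at 0.010, and without the muscle, cartilage and hair follicle genes Ywhag stood at 0.00040. Depth limits Ywhab most, at 59 to 107 counts.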

Other observations

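YAP and TAZ, the Hippo pathway coactivators that 14-3-3 proteins hold in the cytoplasm, were read through a list of 19 symbols, of which 10 genes were tested, with 2 higher, 8 lower, a median log2 fold change of -0.05 and 0 called by edgeR or at an unadjusted p under 0.05. Wwtr1, which encodes TAZ, stood at 87.3 and 82.5 CPM in AAV-control ears (rat 1, then rat 2) and at 114 and 96.2 CPM in AAV-Fgf7 ears. Its log2 fold change was 0.31 (SE 0.23). Tead1, which encodes a DNA-binding partner of both coactivators, and Mob1a, which encodes a kinase adaptor, stood at -0.06 (SE 0.35) and -0.05 (SE 0.34). Yap1 stood at 16.7 and 29.3 against 33.2 and 12.5 CPM. Ctgf and Cyr61, textbook targets of YAP and TAZ, stood at -0.50 (SE 0.24) and -1.05 (SE 0.51). Both AAV-Fgf7 libraries lay below both controls for these 2 of the 10 tested genes, beside 13.3% of all genes. They lay above both controls for 2 others, Wwtr1 and Nf2 (0.53, SE 0.30), beside 14.8% of all genes. Yap1, Cyr61 and Nf2 were chosen after their values were seen.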
